A study of Mus musculus with 14 samples.

Results

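Microglia sorted from the cerebral cortex of C57BL/6 mice 21 days after focal ischemic stroke were compared with microglia sorted from sham-operated mice. The comparison rests on 4 of the 14 RNA sequencing libraries of the study, chosen by their labels: day 21 replicates 1 and 2 and sham replicates 1 and 2. For the stroke, the distal middle cerebral artery was tied off for good and the common carotid arteries were closed on both sides for 7 min. Sham animals were given only a lesion of the skull surface. All animals were 8 to 10 weeks old, and the same strain, tissue and cell sorting were used for both groups. The sort markers, the interval from sham surgery to sampling and the number of animals per library are not stated in the labels. Nor do the labels call the replicates separate animals, so a p-value measures only the spread between these libraries, which may be technical. The other 10 libraries were from stroke animals at days 1, 3, 7, 60 and 90, with 2 at each time. They entered the gene filter, the scaling, the estimate of the spread and a comparison of day 21 with the other stroke times.

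Microglia are the resident macrophages of the brain parenchyma and live on signals through the CSF1 receptor and TGF-beta. Undisturbed microglia are known for a homeostatic set of genes that includes the purinergic receptor P2ry12, the membrane protein Tmem119 and the transcription factor Sall1. Around damaged tissue, plaques and debris they are known to shift to a disease-associated state, in which the lipid receptor Trem2 and the lipid carrier Apoe act upstream of genes for lysosomes, lipid handling and growth factors.

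Total counts per library were 15254983 and 100625099 in sham and 16939261 and 116539697 at day 21, and every pair of values is given here in the order replicate 1, replicate 2. Levels are given as CPM, the share of a library's counts scaled by edgeR's TMM factors, and ± marks an SE. The day 21 libraries had the lowest correlation of log2 CPM of any group, r = 0.824 across genes, against 0.885 to 0.942 in the other 6 groups, and 25.4% of the 13861 genes tested differed more than 4-fold between them. Genes are therefore given library by library, and a gene was taken as different only where the pair from day 21 lay wholly above or wholly below the pair from sham. In bulk RNA, fewer cells of a type and less RNA per cell cannot be told apart.

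The sham libraries carried little RNA of several genes that define microglia. Tmem119 was at 16.9 and 2.48 CPM, Sall1 at 0.424 and 0.214 CPM, the Fc receptor-like gene Fcrls at 10.4 and 4.03 CPM and the complement gene C1qa at 8.61 and 2.66 CPM in sham. The general myeloid genes Csf1r and Cx3cr1, at 1687 and 1235 CPM and 392 and 149 CPM, were well above these. Summed markers of neutrophils, of which 14 of 15 were in the table, came to 23223 and 38961 CPM in sham and 8295 and 973 CPM at day 21, with S100a8 at 3397 and 12210.2 CPM in sham and 269 and 26 CPM at day 21. Markers of monocytes, 19 of 19 in the table, summed to 13476 and 19301 CPM in sham and 7600.0 and 1400.1 CPM at day 21, and erythroid markers, 4 of 10 in the table, to 233 and 249 CPM in sham and 0.649 and 0 CPM at day 21. In each of these 3 lists both sham libraries stood above both day 21 libraries, and above the 10 other stroke libraries in each. The part that such RNA had in any change given here was not tested, and sums are CPM of the whole library without TMM scaling.

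**Figure D1:**
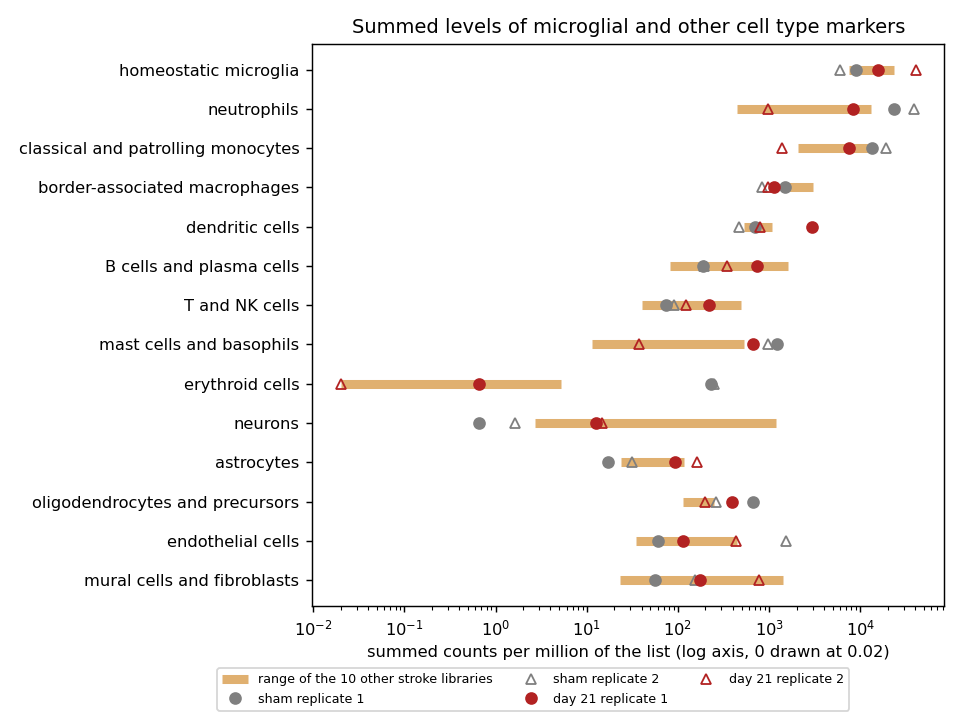
Summed CPM (x axis, log scale, 0 drawn at 0.02) of the homeostatic microglia list and of the cell type marker lists in the sham and day 21 libraries, with bars for the range of the 10 other stroke libraries. Neutrophil, monocyte and erythroid sums were higher in both sham libraries than in both day 21 libraries, and the homeostatic sum was higher at day 21.

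Of 13861 genes tested, 892 differed between day 21 and sham (6.44%; adjusted p under 0.05 in edgeR's quasi-likelihood test), with 693 higher at day 21 (5%) and 199 lower (1.44%). In all 892 the 4 libraries separated by group without overlap, a position that 7159 genes (51.6%) took without any test. Called genes were ranked where their mean log2 CPM was at least 3. The highest rises there were in the phagocyte glycoprotein gene Gpnmb, the 3 chains of complement C1q and the ligand Gas6. The deepest falls there were in the myeloid receptor Cd300e, the sodium channel subunit Scnn1a and Lst1. The count depended on the spread estimated from the other groups and on single libraries. A fit of the 4 libraries alone with edgeR called 0 genes, with 2143 at an unadjusted p under 0.05. The number called was 153 without sham replicate 1 and 68 without sham replicate 2. It was 2410 without day 21 replicate 1 and 277 without day 21 replicate 2, and the lone library left in a group was assumed to vary like the other groups. Every count of 1 to 3 list members called against sham became 0 with at least 1 of the 4 libraries left out, except that of the neuronal list. Of the 892 calls, 145 remained without sham replicate 1, 61 without sham replicate 2, 834 without day 21 replicate 1 and 236 without day 21 replicate 2. DESeq2 called 1598 higher and 849 lower (65.3% higher, against 77.7% with edgeR), and limma-voom 856 higher and 840 lower (50.5% higher).

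Among the 12 genes with the largest rise at an average log2 CPM of at least 3, Gpnmb, a glycoprotein of phagocytes that are loaded with lipid, stood at 0.424 and 4.92 CPM in sham and 709 and 2238 CPM at day 21 (log2 fold change 9.08 ± 1.68, edgeR adjusted p = 0.0118). Gas6, which bridges dying cells to the receptors Axl and Mertk, had 0.424 and 0.963 CPM in sham and 62.6 and 350.3 CPM at day 21 (log2 fold change 8.16 ± 1.16, edgeR adjusted p = 0.00374). Il1a, the interleukin 1 alpha gene, had 1.21 and 1.07 CPM in sham and 97.1 and 478 CPM at day 21 (log2 fold change 7.98 ± 0.98, edgeR adjusted p = 0.0016). For each of these genes both day 21 libraries were far above both sham libraries, and replicate 2 of day 21 was the higher one. Pald1 measured 1.27 and 0.38 CPM in sham and 60.2 and 196 CPM at day 21 (log2 fold change 7.35 ± 1.05, edgeR adjusted p = 0.00386). Pmp22, known as a myelin protein, measured 1.58 and 0.868 CPM in sham and 81.5 and 296 CPM at day 21 (log2 fold change 7.30 ± 0.86, edgeR adjusted p = 0.00152). Slco2b1, an organic anion transporter, measured 5.58 and 0.202 CPM in sham and 191 and 598 CPM at day 21 (log2 fold change 7.13 ± 1.51, edgeR adjusted p = 0.0228). Sham replicate 1 was the higher sham library for each of these 3 genes, and none of the groups overlapped.

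**Figure D2:**
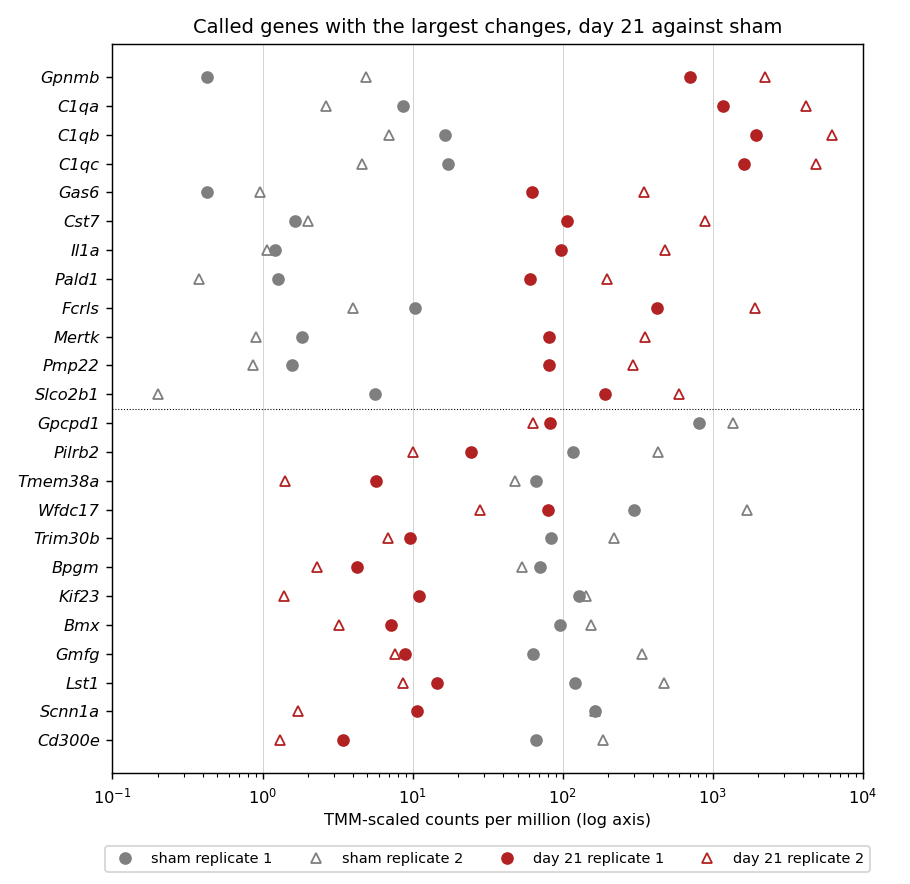
Levels in TMM-scaled CPM (x axis, log scale) of the 12 genes with the largest called rise (above the dotted line) and the 12 with the largest called fall, one marker per library. For all 24 genes the 2 day 21 libraries lie on one side of the 2 sham libraries.

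Leaving out each of the 4 libraries in turn, 50 genes were called in every case, 48 of them higher and 2 lower. The costimulatory ligand Tnfsf9 was at 2.18 and 2.41 CPM in sham and 142 and 217 CPM at day 21 (log2 fold change 6.29 ± 0.50, edgeR adjusted p = 0.000356). The chemokine Cxcl16 was at 3.58 and 4.93 CPM in sham and 344 and 427 CPM at day 21 (log2 fold change 6.50 ± 0.63, edgeR adjusted p = 0.000702). Cd83, a surface protein of activated antigen-presenting cells, was at 52.9 and 44.8 CPM in sham and 1293 and 2626 CPM at day 21 (log2 fold change 5.33 ± 0.63, edgeR adjusted p = 0.00155). The orphan receptor Gpr84 was at 3.82 and 3.54 CPM in sham and 130.5 and 267 CPM at day 21 (log2 fold change 5.76 ± 0.54, edgeR adjusted p = 0.000702). In these 4 genes the 2 libraries of a group lay close together, closer than the groups did. Il1a, Mertk, Pmp22, Fscn1, Chst2, Cadm1, Ch25h, Abca1, Mmp12 and Mmp14 were among the same 50. The 2 that fell in every case were Bpgm and Tmem71. Bpgm, an enzyme of red cell glycolysis, was at 70.7 and 53.3 CPM in sham and 4.23 and 2.32 CPM at day 21 (log2 fold change -4.25 ± 0.63, edgeR adjusted p = 0.00437). Tmem71 was at 258 and 276 CPM in sham and 26.8 and 10.3 CPM at day 21 (log2 fold change -3.85 ± 0.55, edgeR adjusted p = 0.00374).

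Homeostatic genes were higher at day 21 than in sham. Of 30 genes listed, all tested, 17 rose and 0 fell, against 5% and 1.44% of all genes, and 23 had both day 21 libraries above both sham libraries, against 27.5%. The median log2 fold change was 3.69, against 0.06 over all genes. Tmem119, a surface marker of microglia, was at 16.9 and 2.48 CPM in sham and 201 and 350.2 CPM at day 21 (log2 fold change 4.84 ± 1.08, edgeR adjusted p = 0.0242). Sall1, a transcription factor of microglial identity, was at 0.424 and 0.214 CPM in sham and 14.5 and 46.7 CPM at day 21 (log2 fold change 6.66 ± 1.05, edgeR adjusted p = 0.00532). P2ry12, the receptor that directs processes towards ATP, was at 47.5 and 17.6 CPM in sham and 142 and 358 CPM at day 21 (log2 fold change 2.94 ± 0.78, edgeR adjusted p = 0.047). Day 21 replicate 2 was the highest of the 4 libraries for all 3 genes, sham replicate 2 was the lowest, and the groups did not overlap. Fcrls was at 10.4 and 4.03 CPM in sham and 425 and 1909 CPM at day 21 (log2 fold change 7.35 ± 1.09, edgeR adjusted p = 0.00428). Olfml3, a secreted matrix protein, was at 6.06 and 1.21 CPM in sham and 219 and 751 CPM at day 21 (log2 fold change 7.08 ± 1.16, edgeR adjusted p = 0.00628). Siglech, a sialic acid-binding lectin, was at 3.58 and 0.202 CPM in sham and 62 and 249 CPM at day 21 (log2 fold change 6.42 ± 1.38, edgeR adjusted p = 0.0235). In these 3 genes too day 21 replicate 2 was the highest and sham replicate 2 the lowest. Fscn1, an actin-bundling protein, was higher in day 21 replicate 1 than 2, with 0.364 and 0.606 CPM in sham and 206 and 62.1 CPM at day 21 (log2 fold change 8.05 ± 0.92, edgeR adjusted p = 0.00141). Lag3, a receptor best known from T cells and also listed for microglia, had 4 counts in sham in all and stood at 18.9 and 54.8 CPM at day 21 (edgeR adjusted p = 0.00506). Other members that rose were Sparc, Gpr56, Ltc4s, Slc2a5, Gpr34, Bin1 and Golm1, with log2 fold changes from 3.42 for Golm1 to 6.45 for Sparc.

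Not all homeostatic genes passed the test. Cx3cr1, the receptor for neuronal fractalkine, was at 392 and 149 CPM in sham and 597 and 742 CPM at day 21 (log2 fold change 1.31 ± 0.78, edgeR adjusted p = 0.317). Both day 21 libraries were above sham, but not by enough for the test. Csf1r, the receptor for the survival factors CSF1 and IL-34, was at 1687 and 1235 CPM in sham and 2365 and 6498 CPM at day 21 (log2 fold change 1.60 ± 0.78, edgeR adjusted p = 0.227), and the groups were likewise apart. Among 18 genes of the CSF1 receptor and lineage factors, Sall1 and Bhlhe41 rose (11.1%, against 5% of all genes) and 0 fell. Among 20 genes of TGF-beta signalling Ltbp3, Eng and Tgif1 rose (15%, against 5%) and 0 fell, with a median log2 fold change of 0.93. Tgfb1, the ligand, was at 153 and 71 CPM in sham and 126 and 76.3 CPM at day 21 (log2 fold change -0.15 ± 0.49, edgeR adjusted p = 0.884), and the groups overlapped. Its receptor gene Tgfbr1 was at 111 and 46.2 CPM in sham and 184 and 163 CPM at day 21 (log2 fold change 1.14 ± 0.76, edgeR adjusted p = 0.372), above sham in both day 21 libraries without being called. The summed homeostatic list was at 8984 and 5962 CPM in sham, 15611 and 40538 CPM at day 21 and 7563 to 23296 CPM in the other stroke libraries, so day 21 replicate 2 was above all of the others. The number of homeostatic members that rose was 8 and 1 without sham replicates 1 and 2, and 18 and 7 without day 21 replicates 1 and 2. For the TGF-beta list it was 0 with either sham library left out, and 3 and 0 without day 21 replicates 1 and 2.

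Promoters of homeostatic genes are shown because these genes moved together. The 250 bases before the annotated start (RefSeq, GRCm38.p6) were found for 21 of the 30 members and read on both strands for 5 motifs. These were PU.1 (GAGGAAGT), the interferon-stimulated response element (GAAANNGAA), AP-1 (TGANTCA), the CLEAR box of lysosomal genes (TCACGTGA) and a SMAD binding element (GTCTAGAC). PU.1, interferon and SMAD letters were in 0 of the 21, against 3.08%, 7.75% and 0.28% of the 11083 tested genes with a promoter. With 21 promoters, a count of 0 cannot be told apart from shares this low. AP-1 letters were in 2 (9.52%, against 5.86%) and the CLEAR box in 1 (4.76%, against 1.66%). Lag3, the member with the largest rise, is named only. Fscn1 and Fcrls, next in size of change, held none of the letters. Olfml3, Sall1 and Sparc, which follow, held none either and are not shown. Siglech, with a smaller change, was picked for its match, the CLEAR box 57 bases before its start, marked in capitals.
Fscn1 (chr5:142960105-142960354, plus strand): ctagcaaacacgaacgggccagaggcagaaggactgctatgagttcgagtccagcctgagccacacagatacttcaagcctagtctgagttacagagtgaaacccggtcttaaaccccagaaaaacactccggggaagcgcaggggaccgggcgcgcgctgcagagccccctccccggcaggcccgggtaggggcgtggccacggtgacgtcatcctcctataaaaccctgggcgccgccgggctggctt
Fcrls (chr3:87263525-87263774, minus strand): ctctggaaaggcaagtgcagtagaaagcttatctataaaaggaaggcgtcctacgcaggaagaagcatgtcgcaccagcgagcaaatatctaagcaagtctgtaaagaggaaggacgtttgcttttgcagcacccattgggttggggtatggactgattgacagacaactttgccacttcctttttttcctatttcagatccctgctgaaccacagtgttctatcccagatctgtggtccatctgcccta
Siglech (chr7:55767934-55768183, plus strand): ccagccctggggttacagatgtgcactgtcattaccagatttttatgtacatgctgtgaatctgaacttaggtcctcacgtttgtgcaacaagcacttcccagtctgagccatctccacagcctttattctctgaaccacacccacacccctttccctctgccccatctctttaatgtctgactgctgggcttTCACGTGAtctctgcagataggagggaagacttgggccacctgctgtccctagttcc

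Genes of the disease-associated state were also mostly higher than in sham. Of 30 listed, 15 rose (50%, against 5% of all genes) and 2 fell (6.67%, against 1.44%). Of the 30, 19 had both day 21 libraries above sham (27.5% of all genes) and 5 below (24.1%), and the median log2 fold change was 2.71. Trem2, the lipid receptor at the head of this state, was at 17.2 and 28 CPM in sham and 327 and 2696 CPM at day 21 (log2 fold change 6.07 ± 1.21, edgeR adjusted p = 0.0157). Apoe, the lipid carrier that took the most counts of any gene in both day 21 libraries, was at 1550.0 and 1836 CPM in sham and 17968 and 109019 CPM at day 21 (log2 fold change 5.23 ± 1.29, edgeR adjusted p = 0.0367). Cst7, an inhibitor of lysosomal cathepsins, was at 1.64 and 2.0 CPM in sham and 106 and 892 CPM at day 21 (log2 fold change 8.09 ± 1.08, edgeR adjusted p = 0.00276). All 3 were several times as high in day 21 replicate 2 as in replicate 1, and both stood above both sham libraries. Spp1, or osteopontin, was at 10.1 and 71 CPM in sham and 1072 and 5196 CPM at day 21 (log2 fold change 6.27 ± 1.20, edgeR adjusted p = 0.0132). Igf1, insulin-like growth factor 1, was at 0.243 and 0.665 CPM in sham and 40.3 and 135 CPM at day 21 (log2 fold change 7.50 ± 1.29, edgeR adjusted p = 0.00793). Lpl, lipoprotein lipase, was at 104 and 126 CPM in sham and 217 and 1381 CPM at day 21 (log2 fold change 2.80 ± 0.71, edgeR adjusted p = 0.040). Cadm1, an adhesion protein, was at 0.424 and 0.368 CPM in sham and 44 and 183 CPM at day 21 (log2 fold change 8.17 ± 0.98, edgeR adjusted p = 0.00158). Ch25h, which makes 25-hydroxycholesterol, was at 0.0606 and 0.0713 CPM in sham and 10.6 and 40 CPM at day 21 (log2 fold change 8.51 ± 0.96, edgeR adjusted p = 0.00141). For these 5 genes day 21 replicate 2 was the highest library and day 21 replicate 1 the next. Cox6a2, a cytochrome oxidase subunit known from muscle, had 1 count in sham in all and 3.27 and 18.6 CPM at day 21.

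Some defining members of this state did not pass the test. The integrin gene Itgax was at 44.2 and 58.9 CPM in sham and 137 and 757 CPM at day 21 (log2 fold change 3.12 ± 0.96, edgeR adjusted p = 0.0745), and the groups were apart. Clec7a, the beta-glucan receptor, was at 1483 and 1275 CPM in sham and 391 and 421 CPM at day 21 (log2 fold change -1.76 ± 0.57, edgeR adjusted p = 0.0871). Tyrobp, the signalling adaptor of Trem2, was at 1293 and 4403 CPM in sham and 431 and 889 CPM at day 21 (log2 fold change -2.11 ± 0.81, edgeR adjusted p = 0.134). Both day 21 libraries were below both sham libraries for these 2 genes. The 2 members that fell were Ccl6 and Cd52. The chemokine Ccl6 was at 3435 and 6485 CPM in sham and 693 and 379 CPM at day 21 (log2 fold change -3.21 ± 0.77, edgeR adjusted p = 0.0323). The small glycoprotein Cd52 was at 693 and 1769 CPM in sham and 197 and 133 CPM at day 21 (log2 fold change -2.90 ± 0.75, edgeR adjusted p = 0.0425). Members that rose numbered 5 and 2 without sham replicates 1 and 2, and 19 and 10 without day 21 replicates 1 and 2.

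Lipid and lysosomal genes moved unevenly. Of 28 genes of lipid transport and storage, Ch25h, Apoe, Abca1 and Lpl rose (14.3%, against 5% of all genes) and Cd36 and Pparg fell (7.14%, against 1.44%), with a median log2 fold change of 0.57. Abca1, which exports cholesterol, was at 11.5 and 4.12 CPM in sham and 206 and 350.4 CPM at day 21 (log2 fold change 5.16 ± 0.65, edgeR adjusted p = 0.0017). Cd36, a scavenger receptor for oxidised lipid, was at 85.8 and 143 CPM in sham and 15.1 and 27.5 CPM at day 21 (log2 fold change -2.42 ± 0.58, edgeR adjusted p = 0.0315). Pparg, a nuclear receptor of lipid storage, was at 29.1 and 35.5 CPM in sham and 8.59 and 4.9 CPM at day 21 (log2 fold change -2.26 ± 0.44, edgeR adjusted p = 0.0141). The export gene was thus higher in both day 21 libraries while the receptor and the nuclear receptor were lower in both. Of 21 cholesterol synthesis genes 0 rose and 1 fell (4.76%, against 1.44% of all genes). Of the 21, 9 had both day 21 libraries below both sham libraries, against 24.1% of all genes. The 1 was Sc5d, at 104 and 96 CPM in sham and 23 and 10.8 CPM at day 21 (log2 fold change -2.57 ± 0.57, edgeR adjusted p = 0.0242). Of 37 lysosomal genes 9 rose (24.3%, against 5% of all genes) and 0 fell, with a median of 1.30. The cathepsin gene Ctsd was at 1906 and 2038 CPM in sham and 9135 and 46945 CPM at day 21 (log2 fold change 3.83 ± 0.91, edgeR adjusted p = 0.0316). Ctsl was at 51.2 and 84.5 CPM in sham and 442 and 3174 CPM at day 21 (log2 fold change 4.74 ± 0.85, edgeR adjusted p = 0.0101), and Ctsf rose as well (log2 fold change 6.14 ± 1.38, edgeR adjusted p = 0.0284). These proteases were each highest in day 21 replicate 2. Atp6v0d2, a subunit of the proton pump that acidifies the lysosome, was at 0 and 0.0713 CPM in sham and 42.1 and 95.1 CPM at day 21 (log2 fold change 10.32 ± 1.83, edgeR adjusted p = 0.0113), with 6 counts in sham in all. Lysosomal members that rose numbered 0 with either sham library left out, and 16 and 2 without day 21 replicates 1 and 2. Lipid members that rose numbered 2 with either sham library left out, and 6 and 2 without day 21 replicates 1 and 2.

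Complement and engulfment genes rose in part. Of 19 complement genes tested 6 rose, C1qa, C1qb, C1qc, C2, Serping1 and C3ar1 (31.6%, against 5% of all genes), and 0 fell, with a median log2 fold change of 2.63. C1q is the protein that tags targets and starts the classical pathway. Its chain gene C1qa was at 8.61 and 2.66 CPM in sham and 1164 and 4164 CPM at day 21 (log2 fold change 8.89 ± 1.34, edgeR adjusted p = 0.00472). C1qb was at 16.4 and 6.95 CPM in sham and 1932 and 6258 CPM at day 21 (log2 fold change 8.46 ± 1.35, edgeR adjusted p = 0.00548). C1qc was at 17.3 and 4.59 CPM in sham and 1608 and 4854 CPM at day 21 (log2 fold change 8.21 ± 1.36, edgeR adjusted p = 0.00668). Both sham libraries were below both day 21 libraries for each chain, by a factor that was larger in replicate 2. C3ar1, the receptor for the C3a fragment, was at 6.0 and 2.19 CPM in sham and 158 and 329 CPM at day 21 (log2 fold change 5.90 ± 1.01, edgeR adjusted p = 0.00793). C3 itself was at 400.3 and 288 CPM in sham and 266 and 209.6 CPM at day 21 (log2 fold change -0.53 ± 0.78, edgeR adjusted p = 0.707) and did not pass. C2, a protease of the cascade, was at 0.0606 and 0.0951 CPM in sham and 7.37 and 41.2 CPM at day 21 (log2 fold change 8.15 ± 1.23, edgeR adjusted p = 0.00469), and 48.9% of its 50-base words also occur in another gene model, so its reads are uncertain. Of 25 Fc gamma and engulfment receptors 8 rose, Gas6, Mertk, Axl, Stab1, Itgb5, Havcr2, Mfge8 and Fcgr1 (32%, against 5%), and 1 fell, Cd36 (4%, against 1.44%). Mertk, a receptor tyrosine kinase for engulfment, was at 1.82 and 0.903 CPM in sham and 80.6 and 354 CPM at day 21 (log2 fold change 7.35 ± 0.89, edgeR adjusted p = 0.0016). Axl, of the same family, was at 37.6 and 22.2 CPM in sham and 473 and 839 CPM at day 21 (log2 fold change 4.46 ± 0.77, edgeR adjusted p = 0.00799). Mertk and Axl were thus higher, with their ligand Gas6, in both day 21 libraries. Complement members that rose numbered 4 and 0 without sham replicates 1 and 2, and 7 and 5 without day 21 replicates 1 and 2. Engulfment members that rose numbered 2 and 1 without sham replicates 1 and 2, and 9 and 7 without day 21 replicates 1 and 2.

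**Figure D3:**
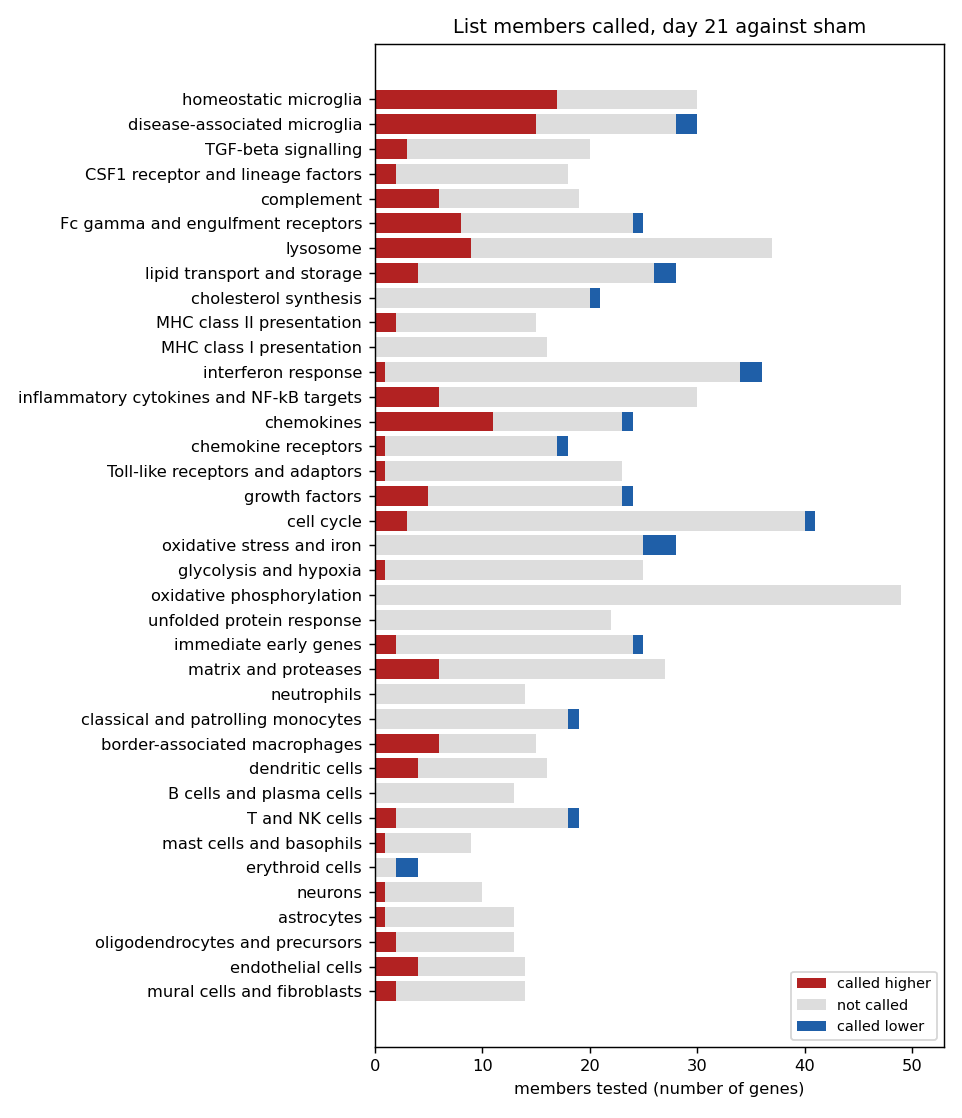
Number of members tested in each gene list (x axis), divided into those called higher at day 21 than in sham, not called and called lower. The homeostatic, disease-associated and chemokine lists hold 17, 15 and 11 members that were called higher, and the oxidative phosphorylation list holds 0 called members of 49.

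Cytokines and chemokines were raised in part. Of 30 inflammatory cytokines and NF-kB targets 6 rose, Il12b, Il1a, Tnfsf9, Il6, Tnf and Icam1 (20%, against 5% of all genes), and 0 fell, with a median log2 fold change of 0.29. Tnf was at 33.9 and 21.9 CPM in sham and 147 and 531 CPM at day 21 (log2 fold change 3.60 ± 0.63, edgeR adjusted p = 0.00871). Il6 was at 0.364 and 0.879 CPM in sham and 4.49 and 13.2 CPM at day 21 (log2 fold change 3.77 ± 1.00, edgeR adjusted p = 0.0467). Il1b, of the same family as Il1a, was lower in both day 21 libraries without passing, at 5593 and 7789.7 CPM in sham and 2376 and 2036 CPM at day 21 (log2 fold change -1.60 ± 0.61, edgeR adjusted p = 0.132). The summed cytokine and NF-kB list was at 11926 and 10342 CPM in sham and 11391 and 10114 CPM at day 21, with overlap. Cytokine and NF-kB members that rose numbered 3 with either sham library left out, and 6 and 4 without day 21 replicates 1 and 2.

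Of 24 chemokines 11 rose, Ccl22, Ccl8, Cxcl13, Ccl12, Cx3cl1, Cxcl16, Cxcl14, Ccl4, Ccl3, Cxcl10 and Ccl7 (45.8%, against 5% of all genes). Ccl6 was the 1 that fell (4.17%, against 1.44%), and the median was 3.54. The summed chemokine list was nevertheless lower in both day 21 libraries, at 5735 and 7903 CPM in sham and 3615 and 4039 CPM at day 21. Ccl4, an attractant of leukocytes, was at 34 and 56.5 CPM in sham and 313 and 1271 CPM at day 21 (log2 fold change 4.13 ± 0.80, edgeR adjusted p = 0.0135). Ccl3, of the same family, was at 55.8 and 47.5 CPM in sham and 239 and 924 CPM at day 21 (log2 fold change 3.49 ± 0.74, edgeR adjusted p = 0.0196). Both were highest in day 21 replicate 2 and did not overlap with sham. Ccl8 had no count in sham and 3.27 and 11.2 CPM at day 21, a mean at least 243-fold higher when sham is set at the floor of 3 counts over the group (0.0298 CPM). Ccl12 was at 0.121 and 0.321 CPM in sham and 9.73 and 96.1 CPM at day 21 (log2 fold change 7.74 ± 1.25, edgeR adjusted p = 0.00587). Ccl22, with 1 count in sham in all, was at 125 and 5.17 CPM at day 21, with replicate 1 the higher library. Ccl2, the classical monocyte attractant, was at 15.1 and 34 CPM in sham and 19.2 and 19.2 CPM at day 21 (log2 fold change -0.36 ± 0.59, edgeR adjusted p = 0.748), with overlapping groups. Among chemokine receptors Ccr3, known from eosinophils, fell and was at 54.1 and 33.9 CPM in sham and 3.53 and 0.495 CPM at day 21 (log2 fold change -4.48 ± 1.21, edgeR adjusted p = 0.0492). Chemokines that rose numbered 2 and 4 without sham replicates 1 and 2, and 13 and 7 without day 21 replicates 1 and 2.

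Interferon-response genes were mostly not called. Of 36 listed 1 rose, Cxcl10 (2.78%, against 5% of all genes), and 2 fell, Trim30a and Rsad2 (5.56%, against 1.44%). Of the 36, 19 had both day 21 libraries below both sham libraries (24.1% of all genes) and 5 above (27.5%), with a median log2 fold change of -0.58. Cxcl10, which attracts T cells, was at 10.9 and 11.1 CPM in sham and 44 and 157 CPM at day 21 (log2 fold change 3.20 ± 0.58, edgeR adjusted p = 0.0106). Rsad2, or viperin, was at 239 and 183 CPM in sham and 77 and 43.2 CPM at day 21 (log2 fold change -1.81 ± 0.41, edgeR adjusted p = 0.0267). Trim30a, which restrains NF-kB signalling, was at 255 and 643 CPM in sham and 145 and 96 CPM at day 21 (log2 fold change -1.90 ± 0.51, edgeR adjusted p = 0.0484). The first was higher in both day 21 libraries and the other two lower in both. Isg15, a ubiquitin-like protein, was at 42.1 and 47.5 CPM in sham and 29.7 and 12.4 CPM at day 21 (log2 fold change -1.09 ± 0.57, edgeR adjusted p = 0.254), below sham in both libraries. Members that fell numbered 0 with either sham library left out, and 7 and 0 without day 21 replicates 1 and 2.

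The promoters of these 3 called genes, chosen after their values were seen, are shown because the genes share the interferon letters and moved in opposite directions. GAAANNGAA stood in 15 of the 27 listed genes with a promoter entry (55.6%), against 7.75% of the 11083 tested genes, and TGANTCA, for AP-1, in 7 (25.9%), against 5.86%. GAAANNGAA lay 213 bases before the start of Cxcl10, 119 before Rsad2 and 35 before the first entry of Trim30a. AP-1 letters lay 74 bases before Cxcl10 and 87 before Rsad2. Entry 2 of Trim30a, at another start, held 0 matches and is not shown. Capitals mark both kinds of match, on either strand, and a match is a description of letters only.
Cxcl10 (chr5:92348890-92349139, minus strand): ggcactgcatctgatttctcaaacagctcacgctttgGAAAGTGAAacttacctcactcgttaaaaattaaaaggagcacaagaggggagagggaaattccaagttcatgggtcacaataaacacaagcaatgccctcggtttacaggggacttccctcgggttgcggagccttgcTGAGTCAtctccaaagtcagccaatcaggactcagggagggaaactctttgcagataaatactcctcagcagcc
Rsad2 (chr12:26456453-26456702, minus strand): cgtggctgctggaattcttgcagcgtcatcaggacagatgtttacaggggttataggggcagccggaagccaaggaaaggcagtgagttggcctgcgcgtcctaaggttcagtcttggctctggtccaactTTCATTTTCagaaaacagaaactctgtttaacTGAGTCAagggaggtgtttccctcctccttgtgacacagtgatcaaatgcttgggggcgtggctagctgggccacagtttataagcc
Trim30a (chr7:104465194-104465443, minus strand): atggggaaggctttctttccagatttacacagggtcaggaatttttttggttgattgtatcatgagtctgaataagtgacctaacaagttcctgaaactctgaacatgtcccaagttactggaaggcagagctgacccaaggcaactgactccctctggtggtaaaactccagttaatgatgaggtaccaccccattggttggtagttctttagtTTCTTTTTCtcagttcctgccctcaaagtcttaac

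Antigen presentation differed between the 2 day 21 libraries. Of 15 genes of MHC class II presentation H2-Oa and Cd86 rose (13.3%, against 5% of all genes) and 0 fell, with 9 above both sham libraries (27.5% of all genes). H2-Oa, part of a regulator of peptide loading, was at 5.34 and 8.57 CPM in sham and 61.2 and 38.7 CPM at day 21 (log2 fold change 2.84 ± 0.52, edgeR adjusted p = 0.0114). Cd86, a costimulatory ligand, was at 36 and 36.7 CPM in sham and 133 and 186 CPM at day 21 (log2 fold change 2.13 ± 0.40, edgeR adjusted p = 0.0118). Cd74, the invariant chain, was at 2058 and 4120.4 CPM in sham and 15475 and 4121 CPM at day 21 (log2 fold change 1.67 ± 0.73, edgeR adjusted p = 0.182). Its day 21 replicate 2 was level with sham replicate 2. The summed class II list was at 5274 and 8059.7 CPM in sham and 45792 and 21349.5 CPM at day 21. Of 16 MHC class I genes 0 were called by edgeR, with 1 higher and 0 lower at an unadjusted p under 0.05, and DESeq2 and limma-voom also called 0. Class II members that rose numbered 0 with either sham library left out, and 3 and 4 without day 21 replicates 1 and 2.

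The 12 largest falls at a mean log2 CPM of at least 3 included receptors and secreted proteins of myeloid cells. Cd300e, an activating receptor of monocytes, was at 66.6 and 186 CPM in sham and 3.45 and 1.3 CPM at day 21 (log2 fold change -5.76 ± 0.94, edgeR adjusted p = 0.00635). Lst1, a leukocyte-specific transcript, was at 121 and 473 CPM in sham and 14.6 and 8.67 CPM at day 21 (log2 fold change -4.67 ± 1.05, edgeR adjusted p = 0.0248). Wfdc17, a secreted protein of activated macrophages, was at 300.4 and 1693 CPM in sham and 80.3 and 28.3 CPM at day 21 (log2 fold change -4.20 ± 1.10, edgeR adjusted p = 0.0438). Scnn1a was at 165 and 164 CPM in sham and 10.7 and 1.73 CPM at day 21 (log2 fold change -4.74 ± 0.89, edgeR adjusted p = 0.0126). The kinase gene Bmx was at 95.3 and 155 CPM in sham and 7.2 and 3.21 CPM at day 21 (log2 fold change -4.59 ± 0.83, edgeR adjusted p = 0.0101). The mitotic kinesin Kif23 was at 128 and 143 CPM in sham and 11 and 1.39 CPM at day 21 (log2 fold change -4.47 ± 1.05, edgeR adjusted p = 0.0297). Both day 21 libraries were below both sham libraries for all 6, and day 21 replicate 2 was the lowest of the 4. Gpcpd1, an enzyme of choline metabolism, was at 806 and 1364 CPM in sham and 82.9 and 63.5 CPM at day 21 (log2 fold change -3.89 ± 0.67, edgeR adjusted p = 0.00793). Tmem38a, a channel of the sarcoplasmic reticulum, was at 66.1 and 48.1 CPM in sham and 5.71 and 1.42 CPM at day 21 (log2 fold change -4.02 ± 0.78, edgeR adjusted p = 0.0135). Trim30b also fell (log2 fold change -4.20 ± 1.08, edgeR adjusted p = 0.0427). Gmfg (log2 fold change -4.60 ± 1.16, edgeR adjusted p = 0.040) and Pilrb2 (log2 fold change -3.99 ± 1.02, edgeR adjusted p = 0.0414) fell, but 19.0% and 28.0% of their words occur in near copies, so their reads are uncertain. The falls of Cd300e, Lst1 and Wfdc17 went with the lower monocyte and neutrophil sums given above, whose part was not tested.

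Of 28 genes of oxidative stress and iron 0 rose and Slc40a1, Gsr and Txn1 fell (10.7%, against 1.44% of all genes). Slc40a1, the iron exporter, was at 1098 and 968 CPM in sham and 108 and 75.8 CPM at day 21 (log2 fold change -3.49 ± 0.65, edgeR adjusted p = 0.0121). Gsr, glutathione reductase, was at 3016 and 3575 CPM in sham and 454 and 93.4 CPM at day 21 (log2 fold change -3.59 ± 0.80, edgeR adjusted p = 0.0242). Txn1, thioredoxin, was at 230.3 and 918 CPM in sham and 42.7 and 58.3 CPM at day 21 (log2 fold change -3.51 ± 0.86, edgeR adjusted p = 0.0355). Each was lower in both day 21 libraries by a factor of several. Hmox1, heme oxygenase, was at 57.1 and 88.2 CPM in sham and 103 and 141 CPM at day 21 (log2 fold change 0.75 ± 0.70, edgeR adjusted p = 0.536) and was not called. The count of 3 was 1 and 0 without sham replicates 1 and 2, and 3 and 0 without day 21 replicates 1 and 2.

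Markers of other cells were called in both directions. Of 14 neutrophil genes tested 0 were called by edgeR, with 2 higher and 6 lower at an unadjusted p under 0.05. DESeq2 called 2 higher and 7 lower, and limma-voom 0 higher and 5 lower. Of 19 monocyte genes Eno3 fell (5.26%, against 1.44% of all genes), and 15 had both day 21 libraries below both sham libraries, against 24.1%. Ccr2, the receptor that brings monocytes into tissue, was at 959.6 and 565 CPM in sham and 891 and 21.9 CPM at day 21 (log2 fold change -0.74 ± 1.10, edgeR adjusted p = 0.716), and the groups overlapped. Ly6c2 was at 357 and 1947 CPM in sham and 261 and 43.8 CPM at day 21 (log2 fold change -2.92 ± 0.92, edgeR adjusted p = 0.0806), and 19.8% of its words occur in a near copy. Among the erythroid genes Alas2, which makes heme, fell from 181 and 243 to 0.262 and 0 CPM (edgeR adjusted p = 0.0242), with 0 counts in day 21 replicate 2. Of 15 border-associated macrophage genes 6 rose, Cd209f, Gas6, Stab1, Ms4a7, Cd38 and Mrc1 (40%, against 5% of all genes). The mannose receptor Mrc1 was at 9.28 and 7.21 CPM in sham and 39.6 and 23.9 CPM at day 21 (log2 fold change 1.95 ± 0.40, edgeR adjusted p = 0.0175). The summed list was at 1488 and 829 CPM in sham and 1144 and 968 CPM at day 21, within the range of sham. Cd209f had no count in sham and 0.654 and 6.44 CPM at day 21, a mean at least 119-fold higher, with 34.4% of its words in a near copy. Of 16 dendritic cell genes Ccl22, Fscn1, Siglech and Tcf4 rose (25%, against 5%). Fscn1 and Siglech are also on the homeostatic list, and Ccl22 is on the chemokine list. Of the 16, 5 had both day 21 libraries above both sham libraries (27.5% of all genes), 1 had them below and 10 overlapped. The sum was 708 and 470.2 CPM in sham and 2960.1 and 793 CPM at day 21, above the 533 to 1068 CPM of the other stroke libraries in replicate 1. Monocyte genes that fell numbered 0 with either sham library left out, and 15 and 0 without day 21 replicates 1 and 2. Macrophage genes that rose numbered 2 and 0 without sham replicates 1 and 2, and 7 and 5 without day 21 replicates 1 and 2, and dendritic cell genes 2 and 1 without sham replicates 1 and 2, and 4 and 5 without day 21 replicates 1 and 2.

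Some markers of non-myeloid brain cells were called higher. Of 14 endothelial genes 4 rose, Ocln, Slco1a4, Kdr and Cldn5 (28.6%, against 5% of all genes), with sums of 60.6 and 1515 CPM in sham and 113 and 429.6 CPM at day 21, the highest of them in sham replicate 2. Ocln, of tight junctions, had no count in sham and 1.96 and 2.84 CPM at day 21, a mean at least 80.6-fold higher. Of 13 oligodendrocyte genes Mal and Cspg4 rose (15.4%), and of 14 mural and fibroblast genes Rgs5 and again Cspg4 (14.3%). Of 13 astrocyte genes Slc1a3 rose (7.69%), and of 10 neuronal genes Eno2 (10.0%), and 0 members of these lists fell. The oligodendrocyte sum was 664 and 264 CPM in sham and 390 and 196 CPM at day 21, with overlap. Mural (56.7 and 154, then 175 and 773 CPM), astrocyte (17 and 31.2, then 93.7 and 162 CPM) and neuronal sums (0.656 and 1.62, then 12.8 and 14.9 CPM) were higher at day 21. Median log2 fold changes were 2.74, 2.84, 1.67 and 0.03 in that order. Mal had no sham count and 0.611 and 1.8 CPM at day 21, a mean at least 40.5-fold higher. Rgs5 had no sham count and 1.53 and 4.63 CPM at day 21, a mean at least 103-fold higher. Of 19 T and NK cell genes Il7r and Cd4 rose (10.5%, against 5%) and Gzma fell (5.26%, against 1.44%). Of 9 mast cell genes Tpsb2 rose (11.1%, against 5%). Of 13 B cell genes edgeR called 0, with 3 higher and 2 lower at an unadjusted p under 0.05, while DESeq2 called 2 higher and 1 lower and limma-voom 0 higher and 4 lower. Sums for T and NK cells were 73.2 and 91.4 CPM in sham and 221 and 122 CPM at day 21, and for mast cells 1235 and 966 CPM and 671 and 37.6 CPM. Endothelial genes that rose numbered 1 with either sham library left out, and 7 and 1 without day 21 replicates 1 and 2.

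The 2 day 21 libraries were then compared with each other, as a description of 1 library against 1. Replicate 1 was more than 4-fold higher for 2167 genes and replicate 2 for 1355. The genes furthest higher in replicate 1, at a mean log2 CPM of at least 6, were Ccr2, with the levels given above, and 5 more. They were the dendritic cell lectin Cd209a at 644 and 10.7 CPM, the lymph node homing receptor Ccr7 at 725 and 15.7 CPM, the neutrophil granule gene Ngp at 1282 and 33.1 CPM, the aspartic protease Napsa at 559.6 and 15.9 CPM and the chemokine receptor Ccr1 at 395 and 11.5 CPM. For some of them the direction against sham depended on the library. Cd209a stood at 105 and 178 CPM in sham, between the day 21 libraries. Its log2 fold change of 1.21 (edgeR adjusted p = 0.554) became -3.69 (edgeR adjusted p = 0.0137) without day 21 replicate 1. Neutrophil, monocyte, dendritic and mast cell sums were all higher in replicate 1, and the homeostatic sum in replicate 2. Among the genes furthest higher in replicate 2 were the class I gene H2-Q4 at 3.93 and 2842 CPM, the ribonuclease Rnaset2b at 10.8 and 2856 CPM, the lysozyme Lyz1 at 21.4 and 2826 CPM, the mitochondrial elongation factor Gfm2 at 19.7 and 1448 CPM and C4b at 34.3 and 1056 CPM. Of these 5, all but Gfm2 have near copies in the genome, from 15.8% of the words of Lyz1 to 64.9% of those of Rnaset2b, so their counts are uncertain.

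**Figure D4:**
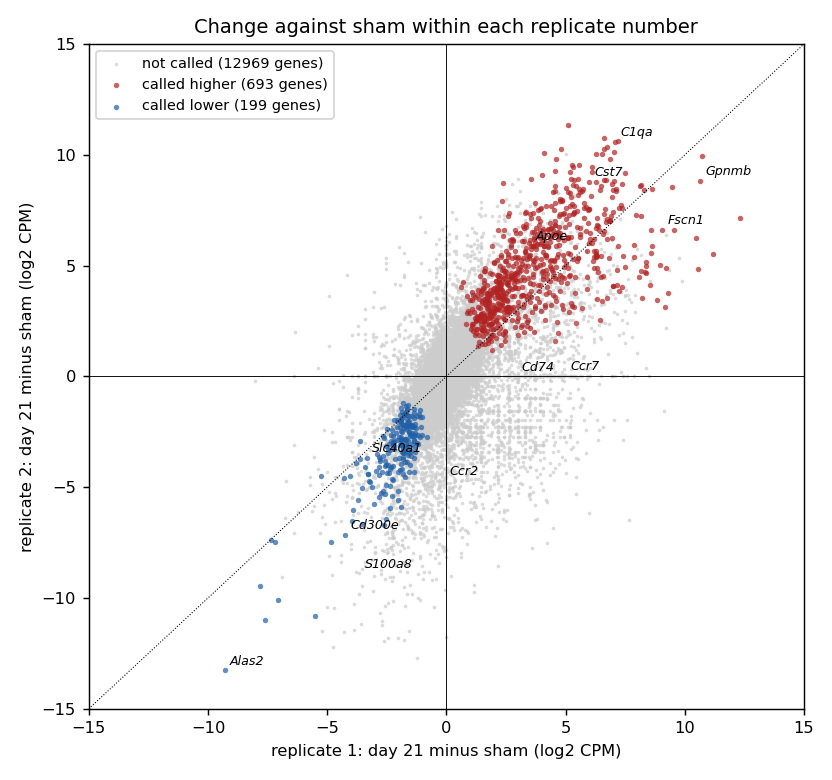
Difference in log2 CPM between day 21 and sham for each of the 13861 genes tested, replicate 1 on the x axis and replicate 2 on the y axis, with 693 genes called higher, 199 called lower and the rest not called. The called genes lie where both differences have the same sign, while Ccr2 lies near 0 in replicate 1 and well below 0 in replicate 2.

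To ask what set day 21 apart from the other stroke times, it was compared with the mean of days 1, 3, 7, 60 and 90. In this contrast the sham libraries entered only the gene filter, the scaling and the estimate of the spread. Of 13861 genes 61 were called (0.44%), 53 higher (0.382%) and 8 lower (0.0577%), and 2033 had an unadjusted p under 0.05. Of the 53, 34 were also higher than sham. Both day 21 libraries were above all 10 others for 21 of the 53 (0.152% of genes tested) and below all 10 for all 8 (0.0577%). Cst7 was at 106 and 892 CPM at day 21 and 8.61 to 77.3 CPM in the other stroke libraries (log2 difference 4.02 ± 0.50, edgeR adjusted p = 0.0114). Chst2, a sulfotransferase of sugar chains, was at 64.3 and 161 CPM against 1.78 to 22.4 CPM (log2 difference 3.66 ± 0.43, edgeR adjusted p = 0.0114). Fscn1 was at 206 and 62.1 CPM against 6.35 to 35.2 CPM (log2 difference 3.06 ± 0.44, edgeR adjusted p = 0.0157). Siglec5, an inhibitory lectin, was at 42.9 and 179.6 CPM against 9.54 to 23.5 CPM (log2 difference 2.94 ± 0.36, edgeR adjusted p = 0.0114). It was at 60.5 and 54.7 CPM in sham, so it was above the other stroke libraries and overlapped with sham. Lower at day 21 was Cd36, at 15.1 and 27.5 CPM against 114 to 1102 CPM (log2 difference -4.59 ± 0.60, edgeR adjusted p = 0.0114), which was also lower than in sham. Plin2, which coats lipid droplets, was at 377 and 268 CPM against 600.1 to 4526 CPM (log2 difference -2.46 ± 0.46, edgeR adjusted p = 0.0428). Lmna, of the nuclear lamina, was at 37.3 and 31.6 CPM against 104 to 355 CPM (log2 difference -2.74 ± 0.43, edgeR adjusted p = 0.0258). Both were within or above the sham levels of 156 and 204 CPM and 30.9 and 39.9 CPM. The actin regulator Mtss1 was at 4.84 and 5.92 CPM against 18.7 to 49 CPM (log2 difference -2.68 ± 0.40, edgeR adjusted p = 0.0216) and 7.46 and 6.1 CPM in sham. The magnesium transporter Slc41a2 was at 2.01 and 1.45 CPM against 7.43 to 22.7 CPM (log2 difference -3.0 ± 0.54, edgeR adjusted p = 0.0371). It was higher than its sham levels of 0.424 and 0.261 CPM (log2 fold change 2.38 ± 0.62, edgeR adjusted p = 0.0428), and so lay between sham and the other stroke times. Pparg was also lower (log2 difference -2.41 ± 0.39, edgeR adjusted p = 0.0278). Sall1 (log2 difference 2.97 ± 0.52, edgeR adjusted p = 0.0339) and Gpr84 (log2 difference 1.84 ± 0.30, edgeR adjusted p = 0.0272) were higher, though not above every other stroke library. Without day 21 replicate 1 the count was 938, and without replicate 2 it was 17, with 3 genes called in both cases, Eps8l2, Faim3 and St8sia6.

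**Figure D5:**
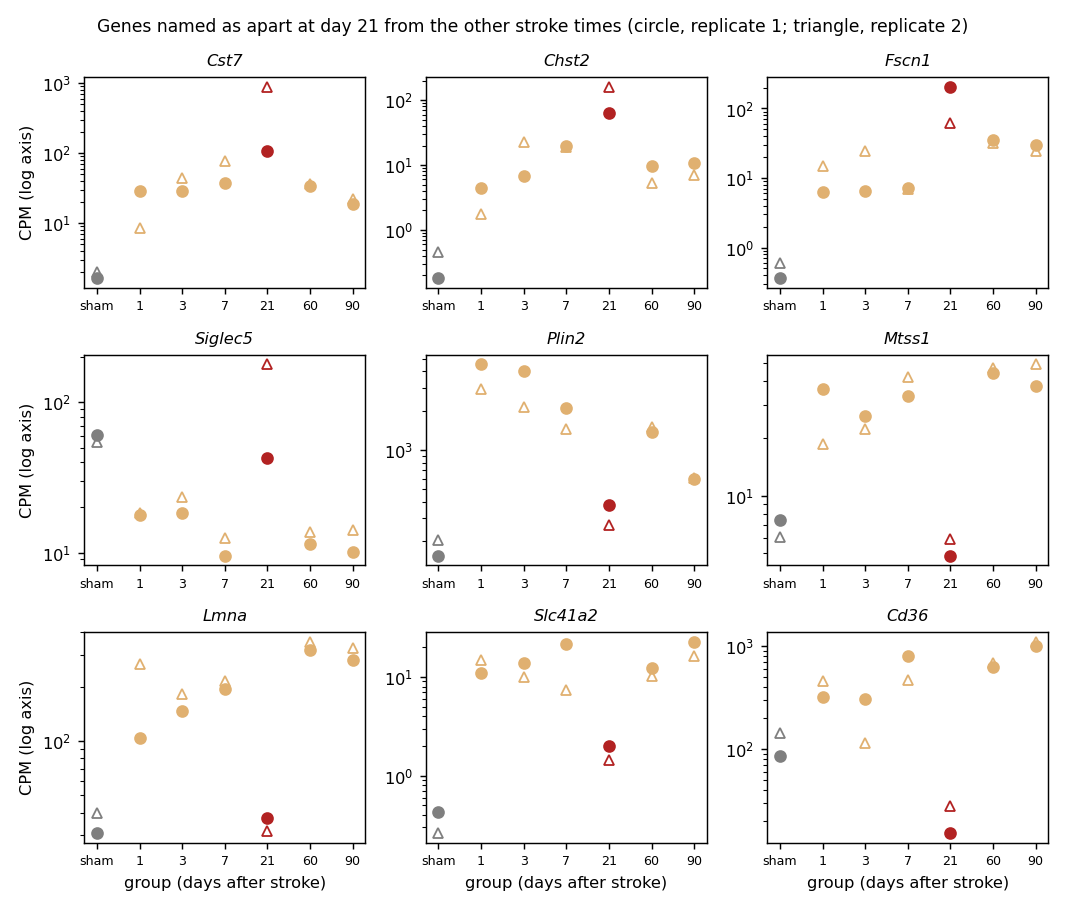
TMM-scaled CPM (y axis, log scale) by group (x axis, sham and days after stroke) of 9 genes that were called between day 21 and the other stroke times, at a mean log2 CPM of at least 3, with both day 21 libraries outside the range of the 10 others. They are the 4 higher genes that met these limits and the 5 lower ones with the largest difference, and Pparg and Kcnn4 met them too and are not drawn. Cst7, Chst2, Fscn1 and Siglec5 are higher at day 21, and Plin2, Mtss1, Lmna, Slc41a2 and Cd36 are lower.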

How the data were processed

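The authors deposited raw read counts per gene for 14 libraries of sorted microglia, as 1 table and as 1 file per library. All 14084 values agreed between table and file for every library, and 23 gene names differed where a spreadsheet had turned them into dates. Per the submitters' processing notes, Bowtie2 2.3.4.2, HTSeq 0.6.1 and genome build mm9 were used; settings for strand and multi-mapped reads are not stated there. Samples were grouped by their titles, and no 2 replicates agreed within sampling noise (chi-square per degree of freedom at least 408).

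The counts were fitted with edgeR 4.0.16 in R 4.3.3 (filterByExpr, which left 13861 genes and removed 223, TMM scaling, quasi-likelihood with robust estimation, a mean per group over all 14 libraries, 7 residual degrees of freedom, common biological coefficient of variation 0.639). Benjamini-Hochberg adjustment was over all genes tested, and a gene was called at an adjusted p under 0.05. An SE is the absolute log2 fold change over the square root of F. log2 CPM used a prior count of 2. The floor is 3 counts, or 0.0257 to 0.197 CPM in the 4 libraries, and covers counting error only. A bound sets the mean level of the other group against 3 counts in the TMM-scaled total of the group without counts. Alternatives were DESeq2 1.42.0, limma-voom 3.58.1, upper-quartile scaling, no filter, the compared groups alone, a replicate block, a minimum fold of 2 and leaving out each library. The code was tested on simulated data.

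The groups compared, the 24 pathway lists and the 13 cell type lists were chosen with earlier results of these data known. Lists were given no set test. Named genes were the 12 largest called changes in each direction whose mean log2 CPM reached 3, up to 4 called members of each list and direction, a panel of 32 genes, the 5 largest in each direction against the other stroke times outside the range of the 10 others (4 qualified as higher), and the 6 genes furthest apart in each direction between the day 21 libraries at a mean log2 CPM no lower than 6. Other list members and genes called without each library were added after their values were seen. Gene copies were sought as 50-base words of transcripts (GENCODE M21) shared with other genes. Promoters came from a RefSeq table of GRCm38.p6, of which only the 250 bases before the start were read; the counts' own build differs, and no other coordinates are given. A few of the genes named by these rules are not reported here.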

Additional observations from a re-analysis of the deposited data

How the results depend on the processing

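Against sham, 892 genes were called, and 978 with upper-quartile scaling and 888 without a filter on low counts. The count was 2447 with DESeq2, 1696 with limma-voom, 1584 with a replicate block, 389 at a minimum fold change of 2 and 0 in the fit of only the compared groups, and it ranged from 68 to 2410 over the leave-one-out fits. Upper-quartile scaling moved the median log2 fold change of all genes by 0.22, and the medians of the MHC class I list changed sign with it, from -0.11 to 0.11. Against the other stroke times, 61 genes were called, and 480 with DESeq2, 304 with limma-voom, 91 with a replicate block, 8 at a minimum fold change of 2 and 17 to 938 over the leave-one-out fits. Replicate numbers were not taken as pairs in the main fit, because the labels state no pairing. The correlation of same-numbered deviations was nevertheless positive throughout. It ran from 0.071 to 0.677 and passed 0.1 for 20 of the 21 pairs of groups, not for day 1 with day 21. For sham with day 21 it was 0.342. Libraries of the same replicate number thus shared part of their difference, which the main fit left in the spread and the block took out. The 892 calls against sham all remained under the block, and 54 of the 61 against the other stroke times. Of the 112 named genes called against sham, 112 remained called with DESeq2, without a filter and with the block, 102 with limma-voom, 110 with upper-quartile scaling, 76 at the minimum fold, 36 without sham replicate 1, 16 without sham replicate 2, 106 without day 21 replicate 1 and 52 without day 21 replicate 2, and all kept their direction in each. Among the named genes not called, Cd209a turned from 1.21 to -3.69 without day 21 replicate 1 and stood at 2.19 without day 21 replicate 2, and the cause was not tested. Depth, at 15254983 to 116539697 counts a library, set the floor for genes absent from 1 group.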

Other observations

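Some matrix and growth factor genes also differed between day 21 and sham. Of 27 matrix and protease genes 6 rose, with Adamts1, Mmp13 and Plau among them (22.2%, against 5% of all genes), and 0 fell. Mmp12, macrophage elastase, was at 0.182 and 0.463 CPM in sham and 21.6 and 61.9 CPM at day 21 (log2 fold change 6.91 ± 0.86, edgeR adjusted p = 0.0016). Mmp14, a membrane-bound protease, was at 0.667 and 2.95 CPM in sham and 117 and 129 CPM at day 21 (log2 fold change 6.05 ± 0.66, edgeR adjusted p = 0.00126). Sparc, which binds collagen, was at 10.5 and 17.8 CPM in sham and 369.5 and 2111 CPM at day 21 (log2 fold change 6.45 ± 1.11, edgeR adjusted p = 0.00793). Of 24 growth factors 5 rose, with Igf1 and Pdgfb among them (20.8%, against 5%), and 1 fell (4.17%, against 1.44%). Pdgfa was at 0.424 and 0.392 CPM in sham and 6.89 and 40.9 CPM at day 21 (log2 fold change 5.88 ± 0.83, edgeR adjusted p = 0.00369). Vegfb was at 0.788 and 0.856 CPM in sham and 10.5 and 69.2 CPM at day 21 (log2 fold change 5.59 ± 1.07, edgeR adjusted p = 0.0131). Gdf15 was at 1.33 and 0.559 CPM in sham and 16.2 and 53.6 CPM at day 21 (log2 fold change 5.25 ± 1.00, edgeR adjusted p = 0.0129). Hgf, hepatocyte growth factor, fell and was at 16.7 and 23.6 CPM in sham and 5.93 and 2.28 CPM at day 21 (log2 fold change -2.31 ± 0.58, edgeR adjusted p = 0.0396). Of 41 cell cycle genes 3 rose, Plk1, Kif2c and Cdk1 (7.32%, against 5%), and 1 fell, Kif23 (2.44%, against 1.44%), both near the share over all genes. Of the 41, 24 had both day 21 libraries above both sham libraries (27.5% of all genes). Cdk1, the mitotic kinase, was at 0.243 and 0.618 CPM in sham and 6.28 and 13.7 CPM at day 21 (log2 fold change 4.45 ± 0.91, edgeR adjusted p = 0.0168). Top2a was at 1.58 and 1.44 CPM in sham and 13.9 and 2.0 CPM at day 21 (log2 fold change 2.39 ± 0.92, edgeR adjusted p = 0.136) and was not called. Matrix members that rose numbered 2 with either sham library left out, and 9 and 3 without day 21 replicates 1 and 2. Growth factors that rose numbered 3 and 0 without sham replicates 1 and 2, and 7 and 2 without day 21 replicates 1 and 2. Cell cycle genes that rose numbered 0 with either sham library left out, and 3 and 1 without day 21 replicates 1 and 2.

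Of 49 genes of oxidative phosphorylation 0 were called by edgeR, with 0 higher and 10 lower at an unadjusted p under 0.05. DESeq2 called 0 higher and 4 lower, and limma-voom called 0. Of the 49, 23 had both day 21 libraries below both sham libraries (24.1% of all genes) and 0 above. Their median log2 fold change was -0.89. Of 25 immediate early genes Myc and Nr4a2 rose (8%, against 5% of all genes) and Klf2 fell (4%, against 1.44%). Klf2, a regulator of quiescence, was at 1357 and 833 CPM in sham and 206 and 41.3 CPM at day 21 (log2 fold change -3.15 ± 0.73, edgeR adjusted p = 0.0284). Fos, an immediate early transcription factor, was at 4750.4 and 4257 CPM in sham and 4048 and 2877 CPM at day 21 (log2 fold change -0.38 ± 0.52, edgeR adjusted p = 0.69) and was not called. Of 25 genes of glycolysis and hypoxia Adm rose (4%, near the 5% of all genes). Of 23 Toll-like receptors and adaptors Tlr3 rose (4.35%, also near 5%). Tlr3, the receptor for double-stranded RNA, was at 1.58 and 1.27 CPM in sham and 14.8 and 16.3 CPM at day 21 (log2 fold change 3.46 ± 0.63, edgeR adjusted p = 0.0106). Of 22 genes of the unfolded protein response edgeR called 0, with 1 higher and 2 lower at an unadjusted p under 0.05. DESeq2 called 1 higher and 1 lower, and limma-voom 0 higher and 1 lower.

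Against the other stroke times, the B cell genes Cr2 and Blk were called higher at day 21, but neither had both day 21 libraries above all 10 others. Cr2, the complement receptor of B cells, was at 1.22 and 2.39 CPM at day 21, 1.87 and 2.62 CPM at day 60 and 3.83 and 3.68 CPM at day 90 (log2 difference 5.10 ± 0.75, edgeR adjusted p = 0.0272). Blk, a kinase of B cells, was at 2.62 and 6.52 CPM at day 21, 2.49 and 2.41 CPM at day 60 and 6.14 and 7.82 CPM at day 90 (log2 difference 4.72 ± 0.71, edgeR adjusted p = 0.0258). Each had its highest level in a day 90 library and was under 1 CPM at days 1, 3 and 7, and neither was called against sham.

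Across all 14 libraries, 334 genes had all 7 replicate 2 libraries above all 7 replicate 1 libraries and 133 had them all below. For 59 genes the lowest replicate 2 library was over 10 times the highest replicate 1 library, and H2-Q4 ranged from 1.07 to 4.67 CPM in replicate 1 and from 48.8 to 8092 CPM in replicate 2. Among the named genes higher in day 21 replicate 2, H2-Q4, Rnaset2b, Lyz1 and Gfm2 split by replicate number in this way and C4b did not, and the cause of the split was not tested.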
